A study of Mus musculus with 10 samples.

Results

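The genes described here were 37 genes of glycolysis and of the transcriptional response to low oxygen, taken by name from a table of 39273 mouse genes. They were measured by RNA-seq in ureteric bud (UB) organoids, in collecting duct (CD) organoids and in adult mouse collecting duct cells (adult mCD). The names matched 38 entries because Aldoa had a second, little-counted entry annotated as a nonsense-mediated decay product, and the main entry was used. All 37 genes were detected and tested. Of them, 2 were glucose transporters, 15 were enzymes of the glycolytic path from hexokinase to pyruvate kinase, 5 acted on pyruvate and lactate, 1 encoded a regulator of phosphofructokinase, 4 encoded subunits or oxygen sensors of the hypoxia-inducible factors (HIF), and 10 were targets of those factors.

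There were 5 groups of 2 libraries. UB organoids were grown from ureteric buds dissected from mid-gestation embryos that carried the Wnt11-RFP reporter on a mixed C57BL/6 and Swiss Webster background, embedded in Matrigel in a UB culture medium, and were collected on day 5, day 10 and day 20 (UB D5, UB D10 and UB D20). They were passaged every 5 days. CD organoids were made from day 10 UB organoids by changing to a differentiation medium that held FGF9, Y27632, DAPT, PD0325901, aldosterone and vasopressin, and were not passaged. Adult mCD were cells sorted by fluorescence from kidneys of mice about 2 months old with a Venus transgene driven by Hoxb7, and were the only group that was never cultured. The sample labels instead carried the organoid, embryo and Wnt11-RFP wording for the adult libraries, and the design text and the study's methods were followed here. The labels did not say whether the 2 libraries of a group came from separate cultures or animals, so p-values measured only the spread between these libraries, which may be technical.

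Glycolysis converts glucose into pyruvate in a chain of enzymes in the cytosol. Pyruvate is then either reduced to lactate by lactate dehydrogenase and exported, or carried into mitochondria and oxidized, a step that pyruvate dehydrogenase kinases restrain. When oxygen is low, the prolyl hydroxylases of the EGLN family stop marking HIF alpha subunits for destruction, and stabilized HIF raises transcription of many glycolytic genes together with genes of pH control, blood vessel growth and collagen folding. Because HIF alpha subunits are controlled mainly at the protein level, the mRNA of Hif1a or Epas1 need not follow that of their targets. In the adult kidney, proximal tubule cells make rather than burn glucose, whereas collecting duct cells, above all those of the medulla, rely on glycolysis.

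HIF binds a short core sequence, ACGTG or GCGTG, and the letters of that core were searched on both strands of the 250 bases before each annotated gene start (RefSeq, GRCm38.p6), which were given for 34 of the 37 genes. ACGTG was found for 21 of 34 genes (61.8%), against 18.5% of 27025 genes with a promoter in the same table and 22.8% of the 14462 of those that were tested here. GCGTG was found for 23 of 34 (67.6%), against 30.9% and 43.9%, and either core for 31 of 34 (91.2%), against 41.5% and 55.1%. The windows of the 34 genes were richer in G and C, with a median of 63.4% against 58.4% over the tested genes, and 29.4% of the 34 had more than 1 window against 19.0% of tested genes. The part of base composition and window number in the higher share was not tested. The genes were listed for their place in glycolysis and the hypoxia response, and known HIF targets are among them. The shares thus describe the list and are not a test of it. The palindrome CACGTG, which other factors also bind, holds ACGTG on both strands and was counted on each. The windows below are those of genes on which the results turn. They are written 5′ to 3′ on the strand of the gene and end at the base before a RefSeq start. Each core is in capitals (CACGT and CACGC are the cores read on the other strand). Gene positions given later are GENCODE M21 spans, and a RefSeq start can lie inside them. Car9 fell to the floor of detection in culture, Slc16a3 nearly disappeared in adult mCD, Ldha and Ldhb encode the subunits of lactate dehydrogenase that moved apart, and Eno2 fell steeply with neither core in this window.
Car9, chr4:43506776-43507025, + strand: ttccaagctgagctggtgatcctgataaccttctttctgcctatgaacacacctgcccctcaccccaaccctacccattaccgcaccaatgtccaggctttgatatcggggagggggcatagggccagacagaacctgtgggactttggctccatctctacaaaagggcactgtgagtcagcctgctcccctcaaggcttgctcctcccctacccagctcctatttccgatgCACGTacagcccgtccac
Slc16a3, chr11:120948817-120949066, + strand: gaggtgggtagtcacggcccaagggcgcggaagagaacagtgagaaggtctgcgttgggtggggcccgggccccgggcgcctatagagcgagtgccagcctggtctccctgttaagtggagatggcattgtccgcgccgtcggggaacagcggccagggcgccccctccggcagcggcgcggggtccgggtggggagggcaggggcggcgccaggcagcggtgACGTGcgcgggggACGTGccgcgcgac
Ldha, chr7:46845554-46845803, + strand: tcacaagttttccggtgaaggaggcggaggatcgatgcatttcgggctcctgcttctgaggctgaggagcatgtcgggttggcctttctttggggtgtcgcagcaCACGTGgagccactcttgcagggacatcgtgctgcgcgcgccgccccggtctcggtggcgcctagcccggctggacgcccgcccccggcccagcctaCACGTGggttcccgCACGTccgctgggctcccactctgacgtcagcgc
Ldhb, chr6:142507958-142508207, - strand: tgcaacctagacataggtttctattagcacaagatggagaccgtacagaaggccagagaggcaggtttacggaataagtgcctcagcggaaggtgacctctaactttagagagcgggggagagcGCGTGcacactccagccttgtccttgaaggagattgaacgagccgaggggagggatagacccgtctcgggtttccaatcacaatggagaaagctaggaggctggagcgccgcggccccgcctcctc
Eno2, chr6:124769674-124769923, - strand: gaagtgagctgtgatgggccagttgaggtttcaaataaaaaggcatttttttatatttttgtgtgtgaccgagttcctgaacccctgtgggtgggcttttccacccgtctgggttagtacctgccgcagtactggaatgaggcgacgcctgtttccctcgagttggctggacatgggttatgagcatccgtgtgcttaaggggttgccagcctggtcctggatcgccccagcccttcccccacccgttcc
Car9 held 1 ACGTG, 18 bases before the start, and Slc16a3 held 2, at 27 and 14 bases. Ldha held 5 counted matches in the window shown, 4 of them from a pair of CACGTG palindromes, and Ldhb held 1 GCGTG, 126 bases before the start. A second Ldha window, before another RefSeq start, held no ACGTG and 1 GCGTG. These are matches of letters and not measured binding sites.

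The libraries held 11913613 to 24536676 counted reads, with UB D5 and UB D10 at the deep end. Levels are given as CPM, counts scaled to a common library size with TMM factors, and 3 counts, taken as the floor of detection, correspond to 0.109 to 0.241 CPM. A gene passed when its adjusted p was at most 0.01 in edgeR's quasi-likelihood test, Benjamini-Hochberg adjusted over 24410 genes, at any fold. Past 4-fold means passed and changed by more than 4 times. The 9 markers of UB and collecting duct epithelium summed to between 3713 and 5646 CPM in every library, but single markers moved in opposite directions. Ret was at 2100 and 2075 CPM at UB D20, 15.8 and 17.4 in CD organoids and 10.0 and 0.943 in adult mCD. Krt8 was at 382 and 434, 607 and 636, and 1314 and 1235 CPM in the same groups. Markers of principal cells rose from 111 to 226 CPM in UB organoids to 1496 and 1334 in CD organoids and to 11984 and 11516 in adult mCD. The adult libraries also held the 10 proximal tubule markers (9163 and 11378 CPM, at most 39.9 elsewhere), the 4 loop of Henle markers (3393 and 3594 CPM, at most 11.3 elsewhere) and the 8 endothelial markers (1085 and 1066 CPM, at most 23.8 elsewhere). A list of 4 Y-linked genes summed to at most 0.875 CPM at UB D5 and UB D10 and to 230 to 295 CPM in all other libraries. Cells with a Y chromosome were thus nearly absent from the earlier libraries. Culture time, and the differentiation medium where CD organoids are set against UB D10, cannot be told apart from that difference in source. In bulk libraries such as these, fewer cells of a type and less RNA per cell cannot be told apart.

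The set was highest early in culture. Of the 37 genes, 25 had their highest group mean at UB D5, 7 in CD organoids and 5 in adult mCD, whereas 18 had their lowest at UB D20 and 14 in adult mCD. The 15 glycolytic enzymes together made up 1.49% and 1.56% of all counts at UB D5, 1.30% and 0.990% at UB D10, 0.538% and 0.601% at UB D20, 0.903% and 0.899% in CD organoids and 0.428% and 0.426% in adult mCD. These shares are of unscaled counts. As scaled CPM the enzymes summed to 4878 and 5598 at UB D20 and to 5406 and 5370 in adult mCD, so these groups overlapped on that scale. The heatmap of all members by library uses scaled levels. It shows most members high at UB D5 and low at UB D20, with the 2 libraries of UB D10 unlike each other.

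**Figure D1:**
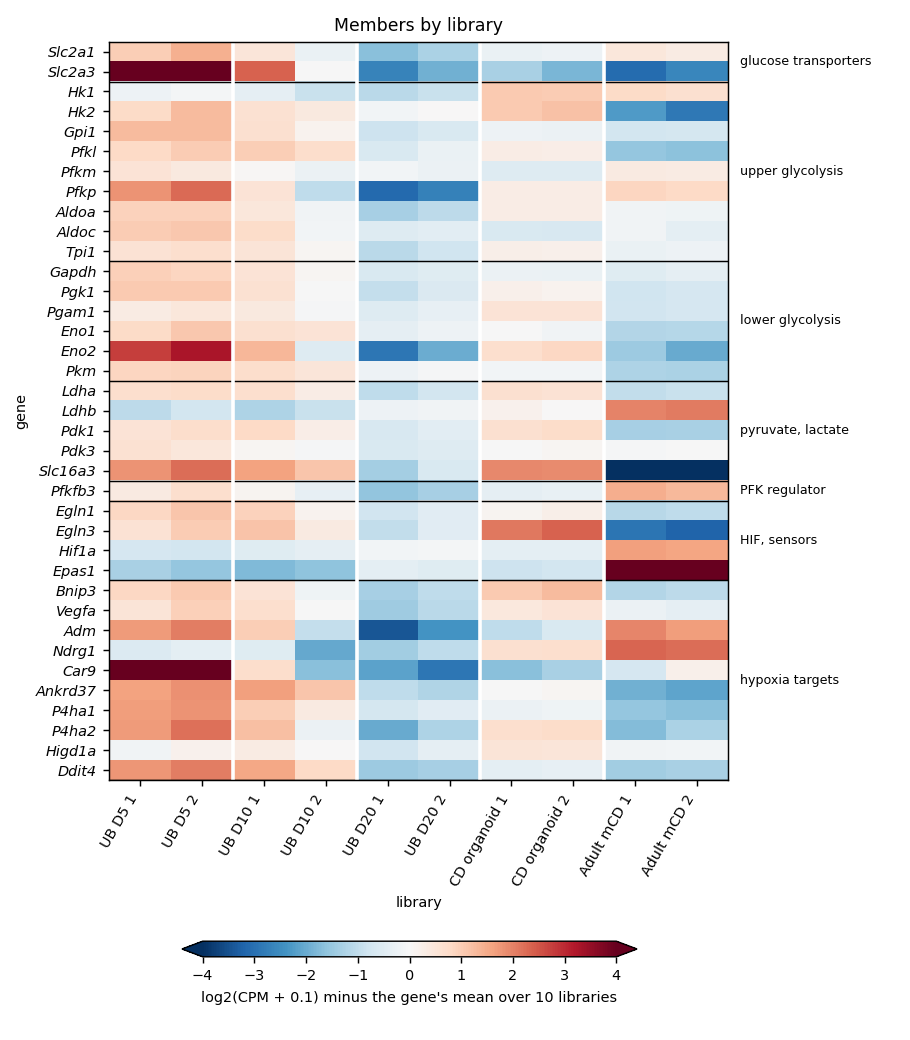
Level of each of the 37 genes (rows, grouped by role) in each of the 10 libraries (columns), as log2(CPM + 0.1) minus the mean of that gene over the 10 libraries. Red is above and blue below the gene's own mean, colours end at 4 on either side, and most rows run from red at UB D5 to blue at UB D20, with Ldhb, Hif1a and Epas1 running the other way into adult mCD.

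From day 5 to day 20 the glycolytic path fell as a whole. Of the 37 genes, 36 passed between UB D20 and UB D5, 33 lower and 3 higher, against 35.3% of all genes tested that passed (16.1% higher, 19.2% lower). The median of the members was -1.57 on the log2 scale and that of all genes was -0.05. All 15 glycolytic enzymes fell, and 14 members fell past 4-fold, against 3.93% of all genes. Of the 14, Aldoa, Bnip3 and Vegfa lay near that limit. Without UB D20 replicate 1 the log2 change of Aldoa was -1.93. The 3 that rose were Ldhb, Hif1a and Epas1, and Ndrg1 did not pass (log2 -0.71 ± 0.32 SE, edgeR adjusted p = 0.089), though it did when either UB D10 library was left out. Over the same days the summed markers of the cell cycle went from 2891 and 2558 CPM to 1444 and 1351 CPM and those of the immediate early response from 346 and 382 CPM to 6219 and 7906 CPM, and their part in the fall was not tested.

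The glucose transporters both fell. Slc2a3, which encodes the high-affinity glucose transporter GLUT3, lies on chromosome 6 at 122727809-122801640 (GRCm38, minus strand). It was at 548 and 573 CPM at UB D5, 63.0 and 12 at UB D10, 1.82 and 3.11 at UB D20, 4.84 and 3.37 in CD organoids and 1.36 and 1.89 in adult mCD. Each UB group stayed apart from the one before it, and the 3 later groups overlapped or nearly so. The fall from UB D5 to UB D20 was 225-fold (log2 -7.81 ± 0.65, edgeR adjusted p = 4.6e-07). Slc2a1, which encodes the widespread transporter GLUT1, was at 942 and 1278 CPM at UB D5, 659 and 398 at UB D10, and 150 and 199 at UB D20. It was at 393 and 409 CPM in CD organoids and 643 and 590 CPM in adult mCD. Unlike Slc2a3, Slc2a1 passed as higher in CD organoids than at UB D20, by 2.30-fold (edgeR adjusted p = 0.00024). Against UB D10, the stage from which CD organoids were made, Slc2a1 did not pass. Within each library, Slc2a3 made up 21.3% of the summed deposited RPKM of the pair at UB D5 and at most 3.18% in the mean of any other group.

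In upper glycolysis the isozymes moved by different amounts. Pfkp, the platelet form of phosphofructokinase, was at 321 and 444 CPM at UB D5, 135 and 45.6 at UB D10, and 10.7 and 14.1 at UB D20. It was at 113 and 113 CPM in CD organoids and at 167 and 160 CPM in adult mCD. The liver form Pfkl and the muscle form Pfkm spanned far less, from 724 and 838 to 275 and 347 CPM for Pfkl and from 142 and 126 to 89.2 and 82.6 CPM for Pfkm. Between UB D20 and UB D5, the log2 change was -4.94 ± 0.40 for Pfkp, -1.33 ± 0.12 for Pfkl and -0.64 ± 0.09 for Pfkm, and all 3 passed. Aldoa (aldolase A) fell 4.25-fold from 2841 and 2837 CPM to 599 and 738 CPM. Gpi1 (glucose-6-phosphate isomerase) fell 3.93-fold, Tpi1 (triosephosphate isomerase) 2.95-fold, Aldoc 2.84-fold, Hk2 2.11-fold and Hk1 1.79-fold.

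In lower glycolysis 5 of the 6 genes fell between 1.75-fold and 3.47-fold and the sixth, Eno2, fell much further. Eno2, the enolase of neurons, was at 392 and 551 CPM at UB D5, 143 and 40.4 at UB D10, 7.71 and 14.5 at UB D20, 90.6 and 103 in CD organoids and 20.9 and 14.0 in adult mCD. Its log2 change from UB D5 to UB D20 was -5.41 ± 0.50 (edgeR adjusted p = 1.2e-06), or 42.6-fold lower. Eno1, the widespread enolase, fell 2.30-fold over the same span, from 1042 and 1292 to 478 and 537 CPM. An entry of near-identical sequence, Eno1b, held 10.7% as many counts as Eno1 over all libraries, so how reads were split between the pair limits the values of Eno1. Pgk1 (phosphoglycerate kinase) fell 3.47-fold, Gapdh 2.75-fold, Pkm (pyruvate kinase) 2.01-fold and Pgam1 (phosphoglycerate mutase) 1.75-fold. Gapdh was the reference gene of the study's quantitative PCR, and here it was at 1669 and 1574 CPM at UB D5, 1259 and 899 at UB D10, 565 and 616 at UB D20, 735 and 710 in CD organoids and 618 and 668 in adult mCD. Its level was thus not constant over the UB cultures, whereas CD organoids and UB D20 (log2 0.29 ± 0.12, edgeR adjusted p = 0.073) and adult mCD and CD organoids (log2 -0.17 ± 0.12, adjusted p = 0.28) did not pass as different. CD organoids against UB D20 passed when either UB D10 library was left out and when the 4 libraries were fitted alone, and against UB D10 Gapdh passed as lower in CD organoids (log2 -0.58 ± 0.12, edgeR adjusted p = 0.0013), a call that was lost without either CD organoid library.

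Among the genes of pyruvate and lactate, the subunits of lactate dehydrogenase went opposite ways. Ldha, whose product favours making lactate, was at 1827 and 1896 CPM at UB D5, 1802 and 1392 at UB D10, 566 and 687 at UB D20, 1786 and 1706 in CD organoids and 574 and 616 in adult mCD. Ldhb, whose product favours using lactate, was at 167 and 204 CPM at UB D5, 144 and 185 at UB D10, 295 and 308 at UB D20, 385 and 345 in CD organoids and 1360 and 1440 in adult mCD. Ldha fell 2.97-fold and Ldhb rose 1.63-fold between UB D5 and UB D20, and both passed. Slc16a3, which encodes the lactate exporter MCT4, lies on chromosome 11 at 120948480-120960868 (plus strand). It was at 239 and 320 CPM at UB D5, 212 and 149 at UB D10, 26.6 and 45.1 at UB D20, 263 and 257 in CD organoids and only 3.32 and 3.38 in adult mCD. It fell 7.81-fold to UB D20, the steepest fall of the 5 genes at this branch. Pdk1 and Pdk3, kinases that hold back pyruvate oxidation, fell 2.21-fold and 2.13-fold.

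The targets of the hypoxia response fell with the enzymes. Between UB D20 and UB D5, 9 of 10 fell, 8 of them past 4-fold, with a median log2 change of -2.56, beside -1.46 for the 15 enzymes. Car9, which encodes a carbonic anhydrase of the cell surface and is a standard readout of HIF activity, lies on chromosome 4 at 43506966-43513729 (plus strand). It was at 25.8 and 40.9 CPM at UB D5, 1.90 and 0.292 at UB D10, 0.182 and 0.0661 at UB D20, 0.285 and 0.401 in CD organoids and 0.678 and 1.34 in adult mCD. The 2 UB D20 libraries held 4 Car9 reads in all, at or under the floor, so the ratio of summed counts between UB D5 and UB D20 was 265 with a 95% exact interval of 103 to 973, for counting error only. Adm, which encodes the vasodilator peptide adrenomedullin, was at 65.0 and 83.2 CPM at UB D5, 39.9 and 10.3 at UB D10 and 1.76 and 3.77 at UB D20, a 26.6-fold fall. P4ha2 fell 11.8-fold and P4ha1 4.92-fold (both encode collagen prolyl hydroxylases), Ddit4, an inhibitor of mTORC1, fell 9.88-fold, Ankrd37 7.11-fold, Bnip3, which acts in mitophagy, 4.26-fold, and Vegfa, the endothelial growth factor, 4.01-fold. Higd1a, a mitochondrial protein, fell 1.49-fold, the smallest fall of the 9, and passed in 6 of 10 fits that each left out 1 library (not without UB D20 replicate 1, UB D5 replicate 2 or either adult library). Without UB D20 replicate 2 the log2 change of Adm was -5.35 and not -4.74. That of Bnip3 was -1.93 without UB D20 replicate 1, and that of Vegfa was -1.76 without UB D5 replicate 2, both short of 4-fold.

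The HIF subunits themselves did not follow their targets. Hif1a was at 120 and 115 CPM at UB D5, 136 and 151 at UB D10, and 176 and 181 at UB D20, and it rose 1.52-fold over that time (edgeR adjusted p = 1.3e-05). Epas1, which encodes HIF-2 alpha, was at 8.07 and 6.90, then 5.91 and 6.60, then 15.2 and 14.3 CPM, a 1.97-fold rise. Of the oxygen sensors, Egln1 fell 3.0-fold, from 295 and 364 to 97.8 and 122 CPM, and Egln3, itself a HIF target, fell 2.84-fold, from 108 and 146 to 36.5 and 53.1 CPM. Egln2, the third sensor and not in the set, was at 57.3 to 63.7 CPM in all 10 libraries. Hif3a, which encodes the alpha subunit that can restrain the others, was at 226 and 251 CPM at UB D5, 98.1 and 28.6 at UB D10, 1.88 and 2.58 at UB D20, 210 and 231 in CD organoids and 1.28 and 0.943 in adult mCD. Its log2 change was -6.72 ± 0.52 from UB D5 to UB D20 and 6.60 ± 0.52 from UB D20 to CD organoids, and both passed.

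**Figure D2:**
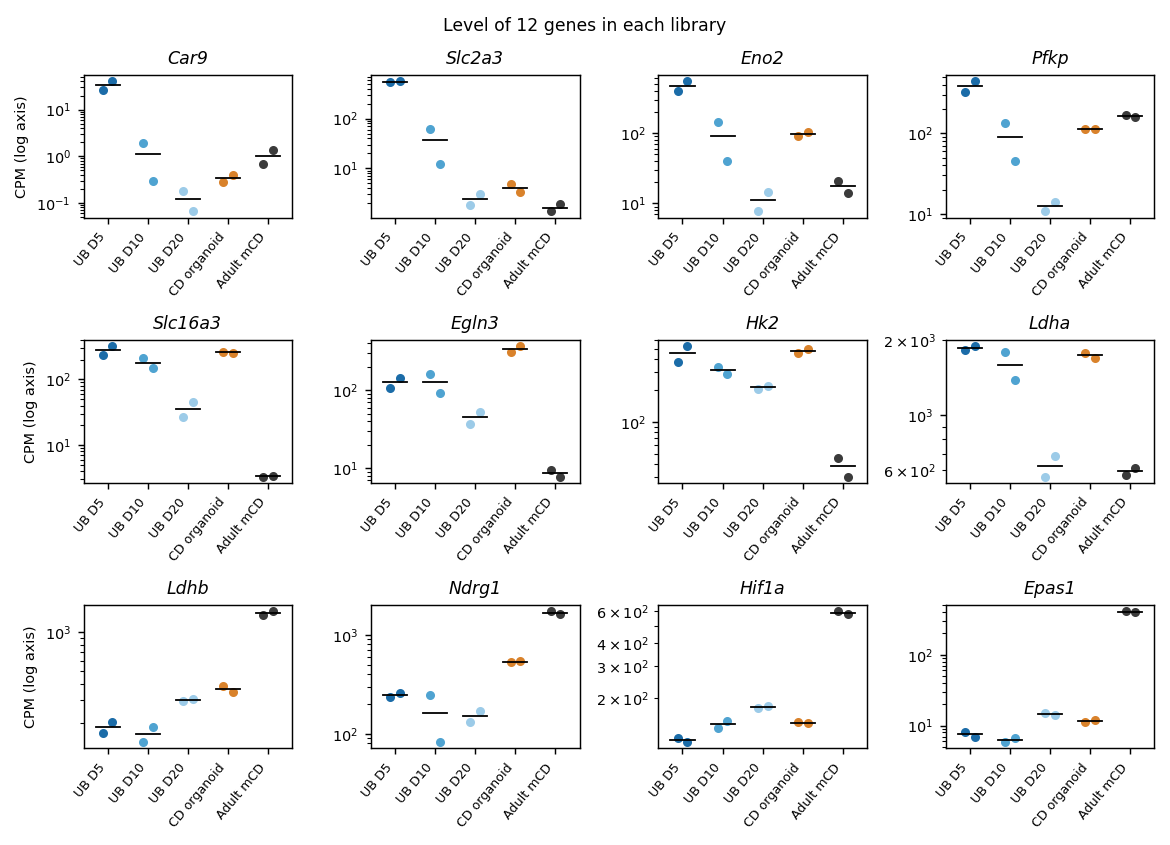
CPM on a log axis of 12 genes in each of the 5 groups, with 1 point per library and a black line at the mean of 2. Car9, Slc2a3, Eno2 and Pfkp dropped stepwise over the UB cultures. Slc16a3, Egln3 and Ldha were lower at UB D20 than at UB D10 or in CD organoids, and Ldhb, Ndrg1, Hif1a and Epas1 were highest in adult mCD.

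The earlier step, from UB D5 to UB D10, depended on the libraries used, and the UB D10 libraries differed from each other in these genes. Replicate 1 was above replicate 2 in 34 of the 37 genes and in 10 of 10 hypoxia targets, with a median log2 ratio of 0.54. Over the 11096 genes at 5 CPM or more, 46.1% were above and the median was -0.02. The members also leaned to 1 side, by less, at UB D5 and UB D20. Replicate 1 was above in 6 of 37 at UB D5 (median -0.21, 44.3% of all genes). At UB D20 it was above in 4 of 37 (median -0.26, 38.1% of all genes). A difference of more than 2-fold between the 2 libraries was found for 7 of the 37 genes (18.9%) and for 1.63% of those 11096. Car9, Slc2a3, Adm, Pfkp, Eno2, Ndrg1 and P4ha2 were the 7, and Car9 lay under 5 CPM. In the other groups between 0 and 2 members differed by that much. Between UB D10 and UB D5, 18 of the 37 genes passed, 17 lower and 1 higher (Hif1a, which passed in 2 of 10 fits that left out 1 library), against 22.3% of all genes (10.5% higher, 11.8% lower), with 4 past 4-fold, all lower (all genes, 1.07% lower): Slc2a3, Pfkp, Eno2 and Car9. Of the 10 such fits, Bnip3 passed in 1, Adm in 2 and P4ha2 and Ddit4 in 4. The count became 31 without UB D10 replicate 1 and 9 without UB D5 replicate 2, and it was 2 when these 4 libraries were fitted alone. Without UB D10 replicate 1, the log2 change of Slc2a3 was -5.54 and that of Car9 -6.59. Without UB D10 replicate 2 they were -3.16 and -4.10, and those of Pfkp and Eno2 were -1.51 and -1.73, short of 4-fold.

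**Figure D3:**
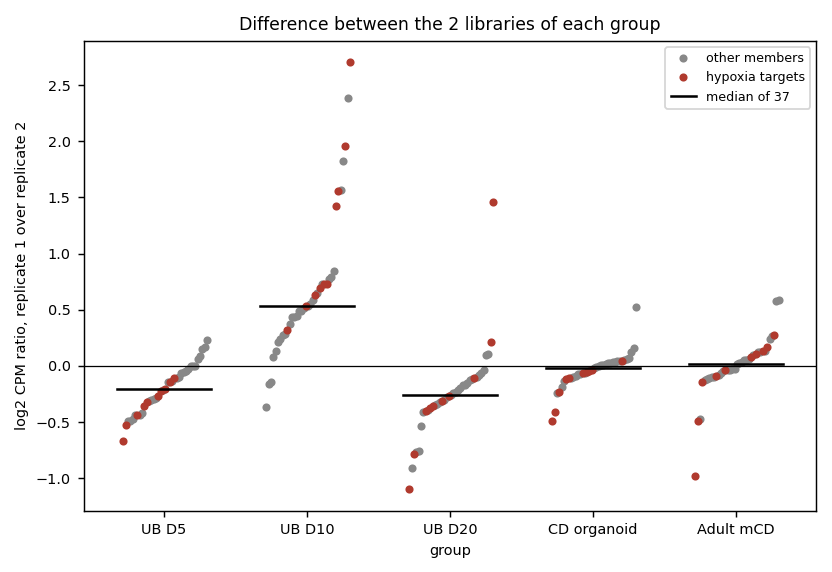
Log2 of the CPM ratio between replicate 1 and replicate 2 for each of the 37 genes in each group, with hypoxia targets in red and a black line at the median. The points lie around 0 in CD organoids and adult mCD, a little below 0 at UB D5 and UB D20, and almost all above 0 at UB D10, where the median was 0.54.

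From UB D10 to UB D20, 32 of the 37 genes passed, 29 lower and 3 higher, against 18.7% of all genes (8.76% higher, 9.94% lower), and the median was -1.25. Aldoc, counted among the 29, lost its call with another filter on low counts. Its log2 change ran from -1.16 to -0.31 as 1 library at a time was left out. The genes that rose were again Ldhb, Hif1a and Epas1. Hif1a lost its call without UB D10 replicate 1, either UB D20 library or CD organoid replicate 1. Past 4-fold were 8, all lower (all genes, 1.73% lower), namely Slc2a3, Pfkp, Eno2, Adm, Ankrd37, P4ha2, Slc16a3 and Ddit4. Slc16a3 went from 212 and 149 to 26.6 and 45.1 CPM and Ankrd37 from 44.2 and 30.5 to 6.98 and 6.02 CPM, with no overlap between the groups. The log2 change of Slc16a3 was -1.97 without UB D20 replicate 1. Pfkl, Pdk1 and Egln3, whose log2 differences between UB D10 and UB D5 were -0.05 ± 0.12, -0.06 ± 0.13 and -0.01 ± 0.22, fell 2.43-fold, 2.11-fold and 2.82-fold from UB D10 to UB D20. Without UB D20 replicate 1 the count was 21, with Adm, Slc2a3, Eno2, P4ha2 and Egln3 among the genes no longer passing, and without UB D10 replicate 2 it was 36. Without UB D10 replicate 1 the log2 changes of Slc2a3, Eno2 and Adm shrank from -3.91, -3.05 and -3.17 to -2.25, -1.85 and -1.87, and those of Pfkp and P4ha2 from -2.86 and -2.23 to -1.85 and -1.33.

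CD organoids held more of these transcripts than UB D20 organoids, which were not the stage they were made from. Of the 37 genes, 25 were higher and 1, Hif1a, was lower (log2 -0.28 ± 0.07), against 34.0% of all genes that passed (16.8% higher, 17.1% lower). The median was 1.13 on the log2 scale and that of all genes 0.00. Past 4-fold were 7, all higher (all genes, 4.74% higher): Pfkp 9.09-fold, Eno2 8.75-fold, Egln3 7.58-fold, Slc16a3 7.26-fold, Bnip3 4.96-fold, P4ha2 4.87-fold and Hk1 4.06-fold. Without UB D20 replicate 1 the log2 changes of P4ha2 and Hk1 were each 1.93, short of 4-fold. Hif1a lost its call without any 1 of the 4 libraries compared, and so did Gpi1, and Egln1 passed in 5 of the 10 fits that left out 1 library. Among the 15 enzymes 10 were higher, but Gapdh, Eno1 and Pkm at the lower end, Pfkm and Aldoc did not pass. Gpi1, counted among the 10, also lost its call with another filter on low counts, with scaling by library totals and with limma-voom. Pkm was at 1378 and 1535 CPM in UB D20 and 1465 and 1462 CPM in CD organoids. Of the hypoxia targets 7 of 10 were higher. Car9 was near the floor in both groups, P4ha1 did not pass (log2 0.36 ± 0.15, edgeR adjusted p = 0.084), and Adm, at 9.90 and 13.2 CPM in CD organoids, missed at adjusted p = 0.017. The cell cycle markers summed to 1444 and 1351 CPM at UB D20 and to 271 and 296 CPM in CD organoids. Those of the immediate early response summed to 6219 and 7906 CPM and to 258 and 286 CPM. The 8 intercalated cell markers summed to 170 and 174 CPM at UB D20 and to 2222 and 2108 CPM in CD organoids. The 7 stromal markers summed to 12.4 and 12 CPM and to 280 and 148 CPM, though Lum alone among them was lower, at 1.09 and 1.32 CPM and then 0.498 and 0.321 CPM. None of either of these 2 lists was at or under the floor in both CD organoid libraries. The part of these lists in the higher levels was not tested.

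Set against UB D10, the culture stage from which they were made, CD organoids differed in both directions. The Y-linked genes summed to 0.317 and 0.875 CPM at UB D10 and to 290 and 295 CPM in CD organoids. The change of medium thus cannot be told apart here from a difference in the source of the cells. Of the 37 genes, 18 (48.6%) passed, 7 higher and 11 lower, against 37.8% of all genes (18.1% higher, 19.8% lower), and the median was 0.01. Higher were Ndrg1 (3.3-fold), Hk1 (3.11-fold), Egln3 (2.69-fold), Ldhb (2.22-fold), Bnip3 (1.89-fold), Epas1 (1.86-fold) and Hk2 (1.53-fold). Hk1, hexokinase 1, was at 260 and 178 CPM at UB D10 and 689 and 672 CPM in CD organoids, with no overlap. Egln3 was at 160 and 92.3 CPM at UB D10 and reached 311 and 368 CPM in CD organoids, its highest level in any group. Lower were Slc2a3, the only one past 4-fold (8.92-fold, all genes 5.71% lower), Ddit4 (2.95-fold), Ankrd37 (2.58-fold), Aldoc, P4ha1, Pkm, Eno1, Gpi1, Gapdh, Pfkl and Pfkm. The count of 18 was 10 without CD organoid replicate 2 and 27 without UB D10 replicate 1, which also took the log2 change of Slc2a3 from -3.16 to -1.51. Slc2a3, Hk2, Aldoc, Gapdh, Pfkl and Pfkm did not pass without either CD organoid library. Without UB D10 replicate 2, Slc2a1, Pgk1 and Adm passed as lower, and without UB D10 replicate 1, Slc16a3, Eno2 and Pfkp passed as higher, so the position of these genes between the stages rested on which UB D10 library was used.

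**Figure D4:**
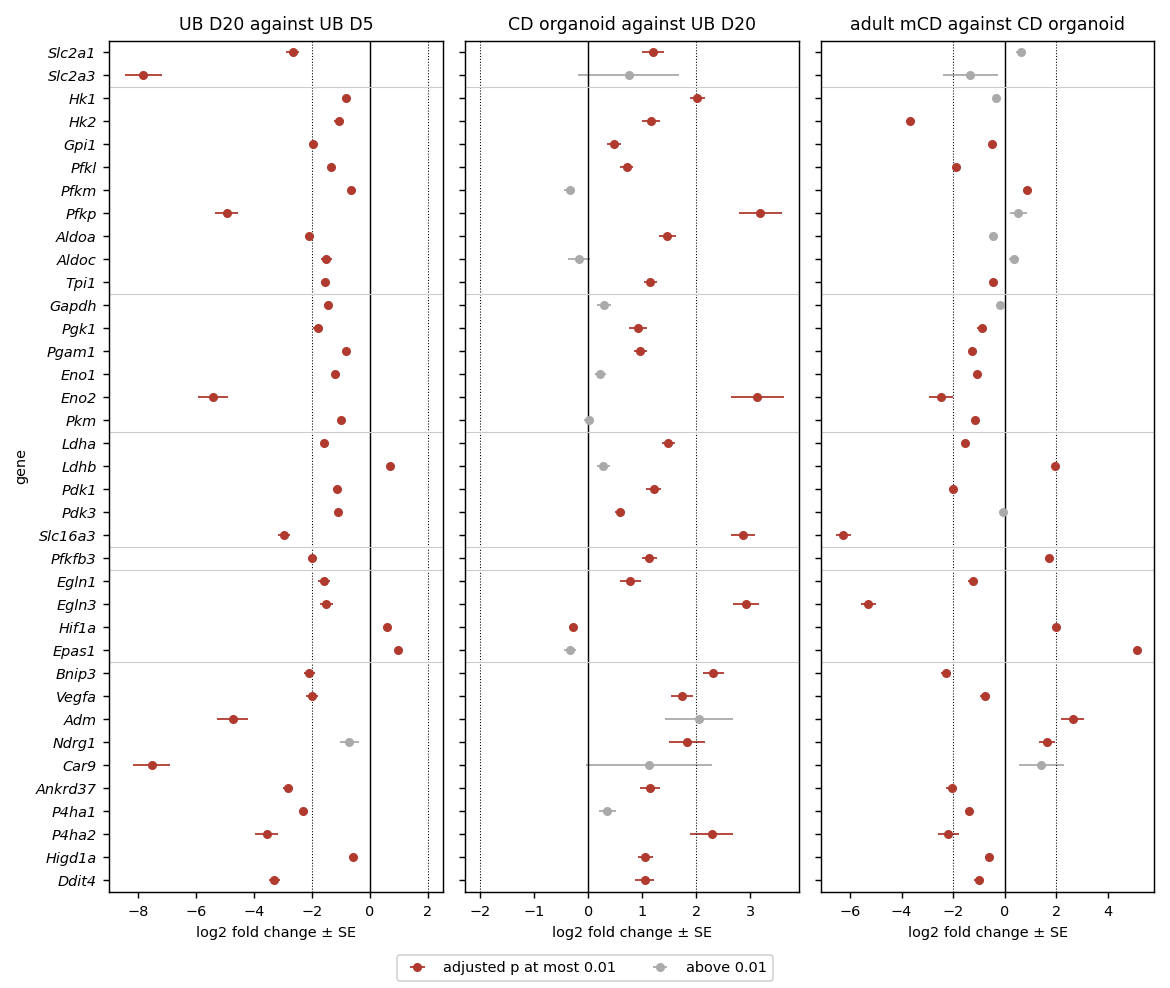
Log2 fold change with its standard error for each of the 37 genes in 3 comparisons (left, UB D20 against UB D5; middle, CD organoids against UB D20; right, adult mCD against CD organoids), red where the adjusted p was at most 0.01 and grey otherwise, with dotted lines at 4-fold. The scale of each panel differs, 33 points lie in red left of 0 in the left panel, 25 lie in red right of 0 in the middle panel, and the panels share libraries, so they are not independent of each other.

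In adult mCD the set split. Against CD organoids, 28 of the 37 genes passed, 7 higher and 21 lower, where 40.2% of all genes passed (21.6% higher, 18.6% lower), and the median was -0.77. Of the 21, Gpi1, Tpi1, Higd1a and Vegfa lost the call when any single library of either group was left out. Past 4-fold were 8 lower (all genes, 4.50% lower) and 3 higher (9.84% higher). Some lay near that limit. Hif1a was at log2 1.95 and P4ha2 at -1.99 without adult replicate 1, Ankrd37 at -1.96 without adult replicate 2 and Pdk1 at -1.95 without CD organoid replicate 2. Slc16a3 was 76.4-fold lower (log2 -6.26 ± 0.29, edgeR adjusted p = 7.8e-10), Egln3 39.3-fold lower, at 9.35 and 7.78 CPM, and Hk2 12.6-fold lower, at 45.4 and 30.2 CPM against 455 and 501. Eno2, Bnip3, P4ha2, Ankrd37 and Pdk1 made up the rest of the 8, and Eno2 did not pass without adult replicate 2 nor P4ha2 without adult replicate 1. Epas1 was at 409 and 406 CPM against 11.3 and 12, a 34.8-fold rise (log2 5.12 ± 0.10, adjusted p = 6.0e-13), Adm at 78.1 and 64.6 CPM was 6.19-fold higher, and Hif1a at 599 and 578 CPM was 4.01-fold higher. Ldhb was 3.83-fold, Pfkfb3 3.26-fold, Ndrg1 3.12-fold and Pfkm 1.82-fold higher. Pfkfb3 makes the activator of phosphofructokinase, and Ndrg1, a stress-response gene, reached 1717 and 1627 CPM from 529 and 543, a call that was lost without either CD organoid library. The 10 immediate early genes summed to 22606 and 20156 CPM in the sorted adult cells against 258 and 286 CPM in CD organoids, and their part in these differences was not tested.

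Against UB D20, 23 of the 37 genes (62.2%) passed in adult mCD, 14 higher and 9 lower, where 48.0% of all genes passed (25.4% higher, 22.7% lower). With scaling by library totals the same number was 10 higher and 13 lower. Past 4-fold were 6 higher (Epas1, Adm, Pfkp, Ndrg1, Pfkfb3 and Ldhb) and 3 lower (Slc16a3, Hk2 and Egln3), against 12.3% and 6.89% of all genes. Slc16a3 was at 26.6 and 45.1 CPM at UB D20, 10.5-fold above adult mCD. Several enzymes were near the UB D20 level, with Gpi1 at 538 and 551 CPM against 512 and 594, Pgk1 at 176 and 193 CPM against 160 and 204, and Ldha at 574 and 616 CPM against 566 and 687. Their log2 differences were -0.02 ± 0.12, 0.02 ± 0.16 and -0.07 ± 0.12. The part of the proximal tubule, loop of Henle and endothelial transcripts in the adult values was not tested. Epas1 is strongly expressed in endothelium, and which cells held it in adult mCD was not tested. Of the 8 endothelial markers, Kdr was at 110 and 105 CPM in adult mCD and at most 1.21 CPM elsewhere. Egfl7 differed less, at 29.7 and 26.8 CPM in adult mCD and 15.3 and 17.6 CPM at UB D5.

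The balance between isozymes shifted with the groups. Shares within a library are given from the deposited RPKM, whose gene lengths exceed those of mRNAs, and as a description with no test. Ldhb made up 19.3%, 20.2%, 53.8%, 33.5% and 85.0% of lactate dehydrogenase RPKM in UB D5, UB D10, UB D20, CD organoids and adult mCD. With GENCODE M21 mRNA lengths the shares were 11.8%, 12.5%, 39.6%, 22.1% and 76.1%, so the order of the groups held but the majority at UB D20 did not. Hk1 made up 19.7%, 20.1%, 22.1%, 34.1% and 84.1% of the pair with Hk2, and 49.2% to 52.9% in UB organoids, 67.1% in CD organoids and 95.4% in adult mCD with mRNA lengths. Pfkp made up 13.5% of phosphofructokinase RPKM at UB D5, 1.16% at UB D20, 6.89% in CD organoids and 19.1% in adult mCD, or 26.3%, 2.57%, 14.6% and 33% with mRNA lengths. Epas1 made up 8.24% to 14.6% of the RPKM of the pair with Hif1a in the cultures and 58.8% in adult mCD, or 37.2% with mRNA lengths. Pdk1 and Pdk3 together were the bulk of pyruvate dehydrogenase kinase RPKM in UB organoids, while in adult mCD Pdk2 made up 38.5% and Pdk4, induced by fasting, 42.8%. With mRNA lengths these were 47.3% and 32.3%, so which of the kinases was larger in adult mCD turned on the lengths used.

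**Figure D5:**
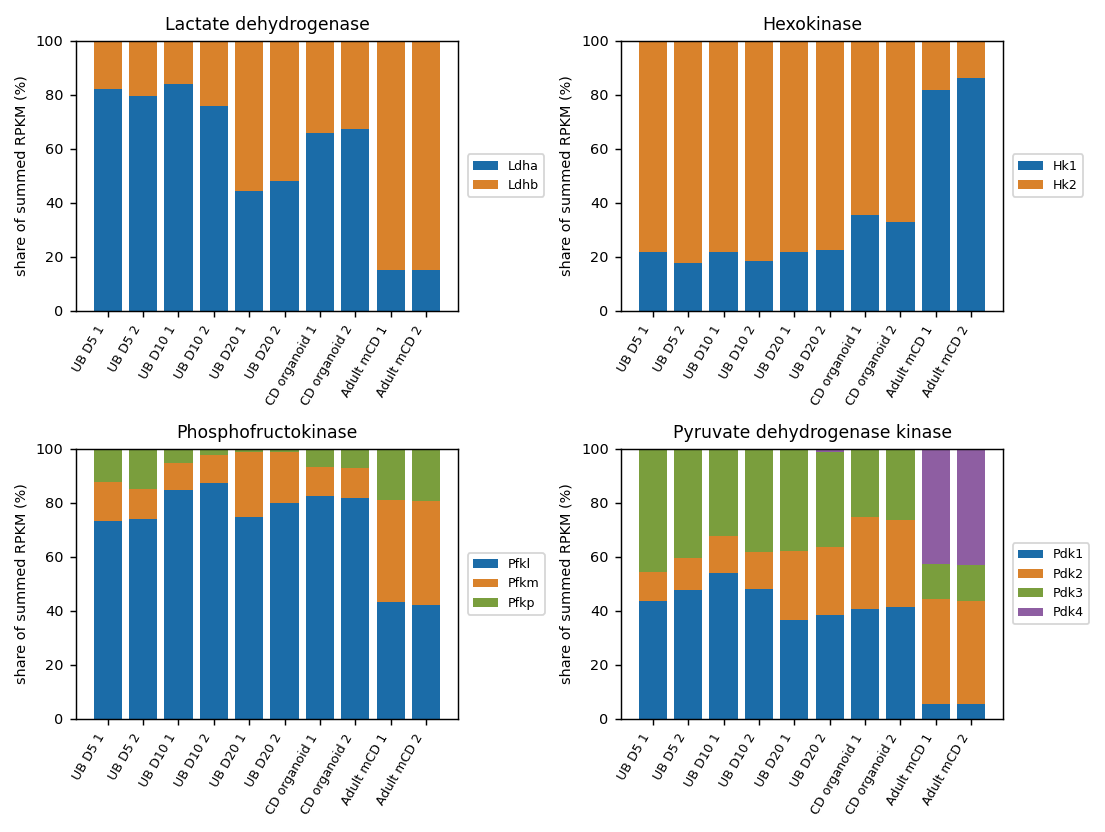
Share of each isozyme in the summed deposited RPKM of its family, in percent, for each of the 10 libraries (stacked bars that reach 100). The Ldhb share was 53.8% at UB D20 and 85.0% in adult mCD, and in adult mCD Hk1 was most of the hexokinase pair and Pdk2 and Pdk4 most of the kinases.

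Beyond the set, 73 other genes of glucose handling and hypoxia were listed and 69 were tested. Between UB D20 and UB D5, 44 of the 69 passed, 16 higher and 28 lower, with a median of -0.31, where 35.3% of all genes passed (16.1% higher, 19.2% lower). Between CD organoids and UB D20, 39 passed, 29 higher and 10 lower, with a median of 0.55, where 34.0% of all genes passed (16.8% higher, 17.1% lower). Loxl2, which crosslinks collagen, went from 85.6 and 107 CPM at UB D5 to 0.910 and 2.31 at UB D20. Pygl, which breaks down glycogen, went from 182 and 213 to 7.40 and 9.39 CPM and was at 71.6 and 74.8 in CD organoids. Ero1l, an oxidase of protein folding and a HIF target, fell from 473 and 548 to 72.5 and 89.0 CPM, and its UB D10 libraries, at 416 and 112 CPM, stood apart as those of the set did. The lactate carriers of the same family did not follow Slc16a3, since Slc16a1 was at 141 and 136 CPM at UB D20 and 27.6 and 28.2 CPM in CD organoids, and Slc16a7 rose from 4.53 and 4.25 CPM at UB D5 to 75.7 and 80.9 at UB D20 and 387 and 391 in adult mCD.

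In adult mCD, 56 of the 69 passed against CD organoids, 35 higher and 21 lower, with 22 higher past 4-fold, where 40.2% of all genes passed (21.6% higher, 18.6% lower) and 9.84% were higher past 4-fold. Pck1, which catalyses the committed step of glucose synthesis, was at 669 and 718 CPM in adult mCD, Fbp1 at 336 and 441 CPM and G6pc at 97.5 and 128 CPM, all genes of proximal tubule gluconeogenesis that moved with the proximal tubule markers given above. Pdk4 was at 223 and 226 CPM in adult mCD and at most 1.59 CPM in the cultures, and Mpc2, a subunit of the mitochondrial pyruvate carrier, at 203 and 240 CPM against 43.4 and 40.3 CPM in CD organoids. Mitochondrially encoded genes took 9.64% and 9.86% of counts in adult mCD, 3.10% to 3.39% in UB D20 and CD organoids and 0.969% to 1.58% at UB D5 and UB D10.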

How the data were processed

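Reads of 10 libraries were mapped to GRCm38.p6 with STAR and counted per gene by the authors, who deposited 1 table with the counts, RPKM values per length of each gene, and TMM-scaled values (a signal never below 0, not used in a test). The study's methods name Partek Flow with its estimation model and GENCODE M24. The submitters' processing notes list FastQC 0.11.8, cutadapt 2.5, Trimmomatic 0.36 and edgeR 3.28.1. The labels and the methods name different kits for RNA and libraries, and which was used could not be settled. In the deposited counts, reads of near-identical genes can be split by the estimation model.

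Counts were tested in edgeR 4.0.16 (R 4.3.3; quasi-likelihood F test, TMM factors 0.792 to 1.12, prior count 1) in 1 fit of all 10 libraries to 5 group means, over the 24410 genes with at least 10 counts in total, with Benjamini-Hochberg adjustment. The common dispersion was 0.00831. Thresholds of an adjusted p of 0.01 and 4-fold are those of the study. The script was first tested on simulated data. The SE of a log2 change is its size divided by the square root of F. The deposited RPKM served for shares of isozymes only. SD and SE are over 2 libraries or from the fit, and intervals cover counting error only. Members, other pathway genes and markers were chosen with earlier results of these data known, and all members are described. Other pathway genes were named where they were isozymes of a member or past 4-fold. Eno1b, near-identical to Eno1, and the Y-linked list, taken from an earlier analysis of these data, were added to these. Alternatives were other scalings, filters, prior count and threshold, DESeq2 1.42.0, limma 3.58.1, only the libraries compared, a replicate block and each library left out. Isozyme shares with GENCODE M21 mRNA lengths (the longest principal transcript) were added after the data were seen.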

Additional observations from a re-analysis of the deposited data

How the results depend on the processing

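Fold changes and calls of the 37 genes in 7 comparisons (259 values) were recomputed under 21 alternatives, giving 5439 values, of which 4941 kept their direction and side of the threshold, 173 passed only under the alternative, 231 lost the call, and 92 that passed in neither fit changed sign. In the other 2, Ndrg1 in UB D20 against UB D10 passed as higher (log2 0.89) without UB D10 replicate 1 and as lower (-0.67) without UB D10 replicate 2, and Pkm in CD organoids against UB D20 passed as lower (-0.34) with limma-voom, while neither passed as reported, and the cause was not tested. No value called in the report changed sign. Calls between UB D10 and UB D5 were the least stable (83 lost, 40 gained of 777) and those between UB D20 and UB D5 the most (8 lost, 4 gained). For UB D10 against UB D5, the 18 members that passed became 28 with no filter on low counts and 2 with only the 4 libraries compared, where all genes fell from 5432 to 2184. For UB D20 against UB D10, only the 4 libraries compared gave 17 members and 2250 genes, 59.0% of them higher against 46.9%, and an adjusted p of at most 0.05 gave 7083 genes against 4565. For CD organoids against UB D10, only the 4 libraries compared gave 11 members against 18. Such fits have fewer samples to estimate the spread.

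Leaving out 1 library at a time gave 9 to 31 members and 3586 to 6295 genes for UB D10 against UB D5, 21 to 36 and 2331 to 5416 for UB D20 against UB D10, 35 to 37 and 6413 to 9692 for UB D20 against UB D5, 10 to 27 and 7266 to 9202 for CD organoids against UB D10, 21 to 30 and 6392 to 9212 for CD organoids against UB D20, 23 to 34 and 7789 to 10757 for adult mCD against CD organoids, and 20 to 27 and 9919 to 12489 for adult mCD against UB D20. The gene count was lowest without UB D5 replicate 1 for UB D10 against UB D5, and without UB D20 replicate 2 (2331) or replicate 1 (2363) for UB D20 against UB D10. The lone library left in a group was assumed to vary as the others do.

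The replicate numbers did not pair the libraries, since correlations of same-numbered deviations ran from -0.102 to 0.167 over 11832 genes. With the replicate block, 18, 32, 36, 18, 27, 28 and 23 members passed in the 7 comparisons in the order above, and the block moved 3 of 259 calls. Scaling by library totals moved the median of all genes by -0.384 and -0.443 in adult mCD against CD organoids and UB D20 and by 0.144 and 0.114 in UB D10 and UB D20 against UB D5, and the share of higher calls over all genes to 33.8%, 36.4% and, for UB D10 against UB D5, 65.6% (53.8%, 52.8% and 47.0% as reported). Upper-quartile scaling moved the adult medians by -0.148 and -0.113, and quantile scaling in limma-voom by -0.202 and -0.213, with 41.8% higher calls for adult mCD against CD organoids. At the depth of these libraries Car9 lay at or under the floor at UB D20 and near it in CD organoids. In adult mCD it lay above the floor, but at an adjusted p of at most 0.01 it passed against neither group. At a limit of 0.05 it passed as higher in adult mCD than at UB D20.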
